A study of Mus musculus with 13 samples.

Results

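Receptors for the Fc part of antibodies were described here through 7 of the 31053 genes in the mouse count matrix: Fcer1a, Fcer1g, Fcer2a, Fcgr1, Fcgr2b, Fcgr3 and Fcgr4. They were chosen by name, as the receptors for IgE and IgG and their shared signaling chain, and all 7 were found by symbol. Their molecule counts were read across marker-defined cell classes and across libraries in barcodes with at most 10% mitochondrial counts.

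The study prepared single-cell RNA libraries from protease-dissociated lungs of C57BL/6 mice. The labels list an ovalbumin-induced asthma model (Asthma), lungs given porcine pancreatic elastase by weekly intratracheal instillation (PPE-emphysema), lungs left to recover after 1 elastase instillation (PPE-recovery), and a Control. The study describes the instillation of the recovery model as high-dose. The study's methods describe 1 wild-type mouse for each of these 4 groups, and the labels give neither sex nor age. A further 9 lung samples, labelled Acute injury, Con and emphysema, were not analysed here.

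Fc receptors read the antibody that coats a target and pass the signal into the cell. Fcer1a binds IgE with high affinity and arms basophils and mast cells, whose release of mediators drives allergic reactions. Fcgr1, Fcgr3 and Fcgr4 bind IgG and activate phagocytes, and Fcgr2b binds IgG and restrains them. Fcer1g carries the activation motif through which the activating chains signal and which they need to reach the cell surface. Fcer2a, or CD23, is unrelated in structure, a lectin-type IgE receptor known from B cells, which tunes IgE production.

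Of the family, 5 genes lie on chromosome 1 of the mm10 build. Fcgr2b spans 170958617 to 170976547 on the minus strand, Fcgr4 171018920 to 171029761 on the plus strand, and Fcgr3 171051174 to 171064935 on the minus strand. Fcer1g follows at 171229572 to 171234365 and Fcer1a at 173221284 to 173227214, both on the minus strand. The stretch from Fcgr2b through Fcer1g covers 275749 bases, and a further 1986918 bases separate Fcer1g from Fcer1a. Fcgr1 lies apart on chromosome 3 (96282909 to 96293969, minus strand) and Fcer2a on chromosome 8 (3681737 to 3694175, minus strand). In the GENCODE M21 annotation, Fcgr3 and Fcgr4 each overlap a small RNA gene of their own strand (Mir6546 and Gm26110), and Fcgr2b overlaps Gm38204 on the other strand.

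The stretch just before the start of a gene is printed for Fcer1a, which 1 cell class used, and for the 3 activating IgG receptor chains, which myeloid classes shared. Capitals mark short cores, on either strand, that transcription factors of these lineages bind. These are GAGGAA, a core for PU.1 of myeloid cells, then AGATAA, which suits the GATA family of basophils and mast cells, and TGTGGT, which suits RUNX proteins. The sequences come from the RefSeq promoter windows of GRCm38.p6 and read in the direction of the gene. They end at the RefSeq start, which for Fcgr3 lies inside the span that GENCODE gives the gene. The windows are chr1:173227230-173227479 on the minus strand for Fcer1a, chr3:96293970-96294029 on the minus strand for Fcgr1, chr1:171059404-171059463 on the minus strand for Fcgr3 and chr1:171018866-171018919 on the plus strand for Fcgr4.
Fcer1a: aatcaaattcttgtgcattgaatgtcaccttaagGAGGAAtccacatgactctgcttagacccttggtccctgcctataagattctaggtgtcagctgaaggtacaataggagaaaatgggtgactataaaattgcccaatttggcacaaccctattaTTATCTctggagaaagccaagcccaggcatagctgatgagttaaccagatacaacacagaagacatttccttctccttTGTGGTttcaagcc
Fcgr1: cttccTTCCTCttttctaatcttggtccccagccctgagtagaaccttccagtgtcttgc
Fcgr3: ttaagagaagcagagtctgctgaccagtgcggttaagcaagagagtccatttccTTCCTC
Fcgr4: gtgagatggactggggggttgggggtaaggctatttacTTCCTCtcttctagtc

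All 7 genes matched a RefSeq promoter, and GAGGAA was searched on both strands in the 250 bases before the start. It stood in the promoters of Fcer1a, Fcgr1, Fcgr3 and Fcgr4, against 23.3% of all 26742 promoters. Within 60 bases of the start, Fcgr1, Fcgr3 and Fcgr4 each held it, all on the opposite strand, against 6.08% of promoters. AGATAA occurred in 10.2% of promoters and, of the 7 genes, in Fcer1a. TGTGGT occurred in 14.1% and in Fcer1a, Fcer2a and Fcgr4, whereas TTGCAA, a core of C/EBP factors, occurred in 5.26% and in 0 of the 7. These matches describe letters in a window and say nothing of binding.

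The matrix held 37344 barcodes in 7 numbered libraries, with 29701569 to 79439569 unique molecular identifiers (UMIs, counted molecules) per library. Because neither labels nor files tie a library number to a group, all libraries were read as 1 sample and no test between groups was made. Libraries 1, 2, 3 and 7 had hemoglobin genes at 0.00963% to 0.0310% of UMIs. In libraries 4, 5 and 6 hemoglobin took 35.3% to 40.6%, and the lung epithelial genes Sftpc and Scgb1a1 together reached at most 0.574 in 1000000 UMIs, against 8141 or more in the other 4, so the labelled lung tissue was not seen there. Pairs of libraries shared 2 to 17 barcodes. The 33618 retained cells formed 66 clusters, and marker lists that held none of the 7 genes named 27 classes, 26 of them with at least 50 cells. Each class is only like the cell type after which it is called, and 1918 cells remained unnamed. Levels are UMIs in 1000000 UMIs of the class (CPM), which for 3′ counts needs no division by gene length, with exact 95% Poisson intervals in parentheses. Shares of cells carry exact binomial (Clopper-Pearson) intervals and ratios of UMIs conditional binomial ones. Ratios of observed to expected cells carry Poisson intervals, and all of these cover counting error only.

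**Figure D1:**
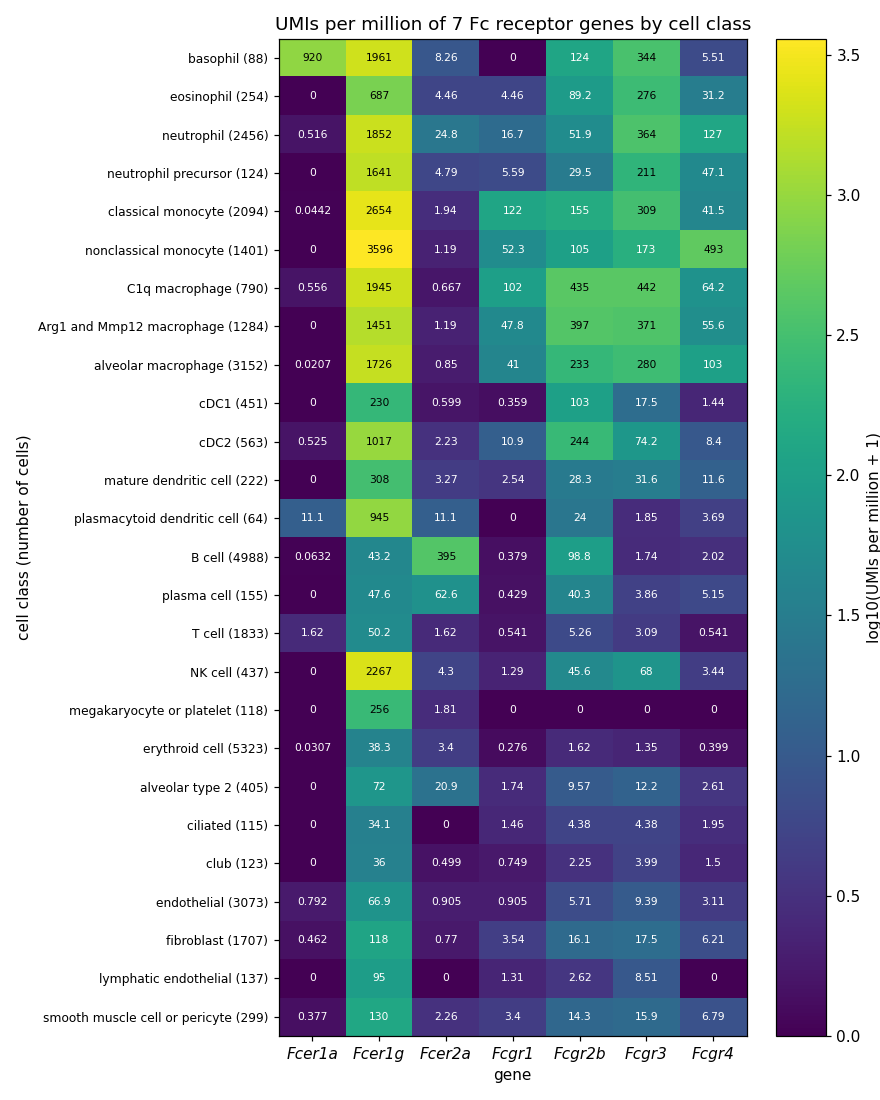
Level of the 7 genes (columns) in 26 cell classes (rows, with their number of cells), printed as UMIs in 1000000 and colored by log10 of that value plus 1. Fcer1a stands at 920 in basophils and at most 11.1 elsewhere, Fcer2a at 395 in B cells, and Fcer1g is at 1451 or more in each monocyte, macrophage and neutrophil class.

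Fcer1g, the common signaling chain, was by far the most abundant of the 7, with 283117 UMIs in 17122 cells (50.9% of all). Its level was highest in nonclassical monocytes, at 3596 (3556–3637). Classical monocytes followed with 2654 (2633–2676) and natural killer (NK) cells with 2267 (2206–2329). Basophils at 1961 (1820–2111) and C1q macrophages at 1945 (1916–1974) could not be told apart. Neutrophils had 1852, alveolar macrophages 1726 and Arg1 and Mmp12 macrophages 1451. Dendritic classes were lower, with 1017 in conventional type 2 cells (cDC2), 945 in plasmacytoid cells and 230 in conventional type 1 cells (cDC1).

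Classes that carry few activating Fc receptors still gave Fcer1g UMIs, as free RNA in droplets can. The level was 50.2 in T cells, 66.9 in endothelial cells, 43.2 in B cells and 38.3 in erythroid cells. After each cell was thinned to 1500 UMIs, 5.60% of T cells and 5.35% of endothelial cells had an Fcer1g UMI, against 98.7% of nonclassical monocytes and 96.4% of NK cells. Shares near these were read as background. Eosinophils stood at 687 (582–804), but the class was shallow, with a median of 558.5 UMIs per cell, and 211 of its 254 cells came from library 7. Libraries 2, 3 and 6 gave 2, 5 and 1 of its cells, while libraries 1 and 7 held only 1 and 2 of its 7 Fcgr4 UMIs. Its pooled values thus rest in part on those few cells. Over the whole class the 5 eosinophil markers summed to 2046 CPM, while 8 alveolar macrophage markers summed to 7436 and 8 neutrophil markers to 6192. The part of those other cells in the eosinophil values was not tested.

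By library, Fcer1g in nonclassical monocytes was 3571, 4009, 3520, 3908, 3108, 3628 and 2871 in libraries 1 to 7. Library 7 was lowest here, and it was the lowest in 8 of the 14 classes that could be compared over at least 4 libraries. In alveolar macrophages libraries 1, 2, 3 and 7 had 1935, 1812, 1678 and 1446, each clear of the next beyond counting error. Arg1 and Mmp12 macrophages differed more, at 1804 (1770–1839) in library 1, 1605 (1544–1668) in library 2 and 1054 (1027–1081) in library 7. Their depth differed as well, with medians of 9551.5, 14456 and 5182 UMIs per cell in these libraries. The part of depth or cell quality in the values of this class was not tested. Fcer1g in neutrophils was 2444, 2244, 2142 and 1996 in the lung libraries. In hemoglobin-rich libraries 4 to 6 it was 1740, 1307 and 1552, without overlap. The clusters that made up neutrophils differed between these sets, and within cluster 5 library 5 had 2016 (1880–2160), beside 2092 to 2257 in the lung libraries.

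**Figure D2:**
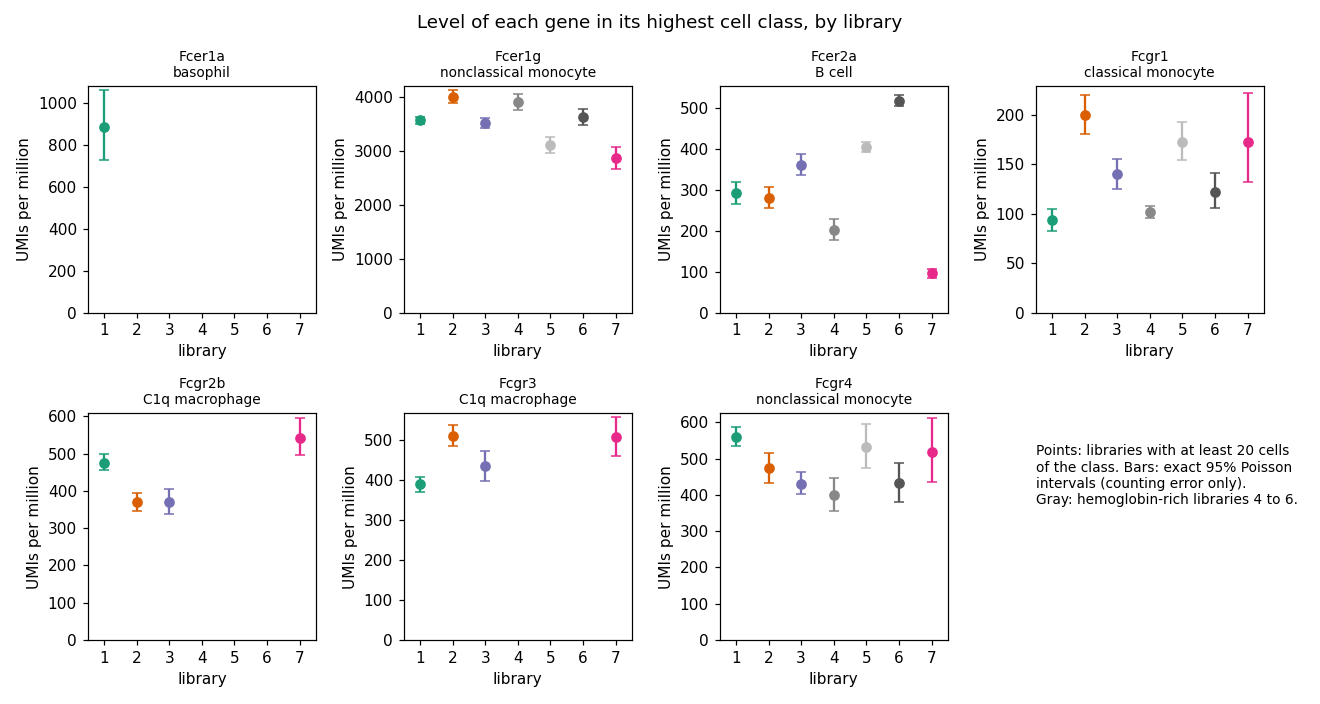
Level of each gene in its highest class (y axis, UMIs in 1000000, linear from 0) by library number (x axis), for libraries with at least 20 cells of that class; bars are exact 95% Poisson intervals and gray points are the hemoglobin-rich libraries. Fcer2a in B cells ranges from 96.5 in library 7 to 519 in library 6, the widest relative range among the 6 genes with several libraries.

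Fcer1a, the IgE-binding chain, was the rarest of the 7 and was counted in the fewest classes. In all it had 420 UMIs in 104 cells, and basophils held 79.5% of these UMIs, a smaller share than the 90.8% of Fcer2a UMIs in B cells. The basophil level was 920 (824–1024), from 334 UMIs in 81 of 88 cells. By library, basophils had 885 in library 1 (36 cells), 1020 in library 2 (19 cells), 776 in library 3 (18 cells) and 751 in library 7 (8 cells). Library 4 had no cell in the basophil class. The 3 and 4 basophils of libraries 5 and 6 gave 1095 (638–1754) and 1615 (1098–2293). Those of the 4 lung libraries had overlapping intervals.

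Outside basophils Fcer1a was close to zero. The next class, plasmacytoid dendritic cells, stood at 11.1 (4.07–24.1), and all 6 UMIs came from 1 of 64 cells. In T cells the 21 UMIs also sat in 1 cell, of library 4. Outside the basophil class 23 cells had Fcer1a, and all 12 with at least 2 of its UMIs also carried at least 2 of the 7 basophil markers, against 0.704% of cells without Fcer1a. In 14 classes, among them eosinophils, NK cells and Arg1 and Mmp12 macrophages, no Fcer1a UMI was counted. For eosinophils, whose cells held few UMIs, that allows up to 16.4 CPM.

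Mast cells, the other classical Fcer1a cell, did not form a class of their own. In the basophil class the 7 basophil markers summed to 9711 CPM and the 6 mast cell markers to 774, with Tpsab1 at 0. Of its 88 cells 2 carried at least 2 mast cell markers. Without these the Fcer1a level was 923 (826–1029).

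The other chains of the IgE receptor complex were present in the same basophils. Fcer1g stood at 1961 there and Ms4a2, the beta chain that amplifies the signal, at 733 (647–826). Ms4a2 had 336 UMIs in all classes and its next level was 14.8, in plasmacytoid dendritic cells. Of the classes with both, basophils had the most alpha chain for their Fcer1g in the pooled counts. There were 1.54 (1.37–1.74) Fcer1g UMIs for each UMI of Fcer1a, Fcgr1, Fcgr3 and Fcgr4 together, against 5.01 (4.87–5.15) in nonclassical monocytes. Other classes lay nearer. Eosinophils had 154 Fcer1g UMIs beside 62 of Fcgr3, 7 of Fcgr4, 1 of Fcgr1 and 0 of Fcer1a. With so few UMIs, the order of eosinophils and basophils is not certain. Arg1 and Mmp12 macrophages had 19565 Fcer1g UMIs beside 5003 of Fcgr3, 750 of Fcgr4, 644 of Fcgr1 and 0 of Fcer1a.

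Basophils also used IgG receptors. Fcgr3 stood at 344 (287–410) and the inhibitory Fcgr2b at 124 (90.4–166), whereas Fcgr4 had 2 UMIs and Fcgr1 none, which allows up to 10.2 CPM. In library 1 basophils had 365 of Fcgr3 and 116 of Fcgr2b, in library 2 they had 416 and 94.0, in library 3 they had 315 and 121, and in library 7 they had 188 and 93.9. Fcgr3 thus lay above Fcgr2b in basophils of all 4 lung libraries, although the intervals in library 7 overlapped (81.1–370 and 25.6–240).

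Fcer2a, the low-affinity IgE receptor, was a B cell gene here. B cells held 90.8% of its 13765 UMIs, at a level of 395 (388–402) and in 74.0% of cells, or 43.3% after thinning. Plasma cells, into which B cells mature, had 62.6 (52.9–73.7). Over libraries 1 to 7 B cells had 293, 281, 362, 202, 405, 519 and 96.5. Pooled, B cells had 239 in the lung libraries and 451 in the hemoglobin-rich ones. Library 7 lay below every other library, and libraries 5 and 6 above all the rest.

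Part of that range followed the makeup of the B cell class. Of its 5 clusters, cluster 3 had 555, cluster 2 had 459, cluster 30 had 312 and cluster 25 had 285. Cluster 27, led by Ms4a1, Zcwpw1, Zbtb32 and Sox5, had 37.6 (32.3–43.4). It held 371 cells, and 149 of the 249 B cells of library 7 fell in it. Within cluster 2, libraries 1, 2, 3, 5 and 7 had 363, 377, 416, 520 and 403, so library 7 was not low there. Within cluster 27 the same libraries had 38.3, 86.7, 46.6, 43.5 and 21.8.

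Fcgr2b, known as the IgG receptor of B cells, was highest in the cluster with the least Fcer2a when libraries were pooled. In the other 4 clusters the lower values of both genes fell in clusters 30 and 25. It stood in cluster 27 at 150 (140–162), followed by 97.6 in cluster 2, 95.9 in cluster 3, 70.9 in cluster 30 and 55.7 in cluster 25. Within cluster 27 it was 101, 96.2, 76.5, 193 and 155 in libraries 1, 2, 3, 5 and 7. Within cluster 2 the same libraries had 76.4, 82.6, 81.2, 110 and 90.8. Cluster 27 was thus clearly higher in libraries 5 and 7, while in libraries 1 and 2 the intervals overlapped and library 3 had the reverse order. Over whole B cells the 7 libraries had 81.8, 85.5, 80.5, 79.9, 110, 87.4 and 142, with library 7 the highest. In single B cells thinned to 1500 UMIs the 2 genes were found together in 251 cells, against 267 from their separate shares in each library, a ratio of 0.940 (0.827–1.06).

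**Figure D3:**
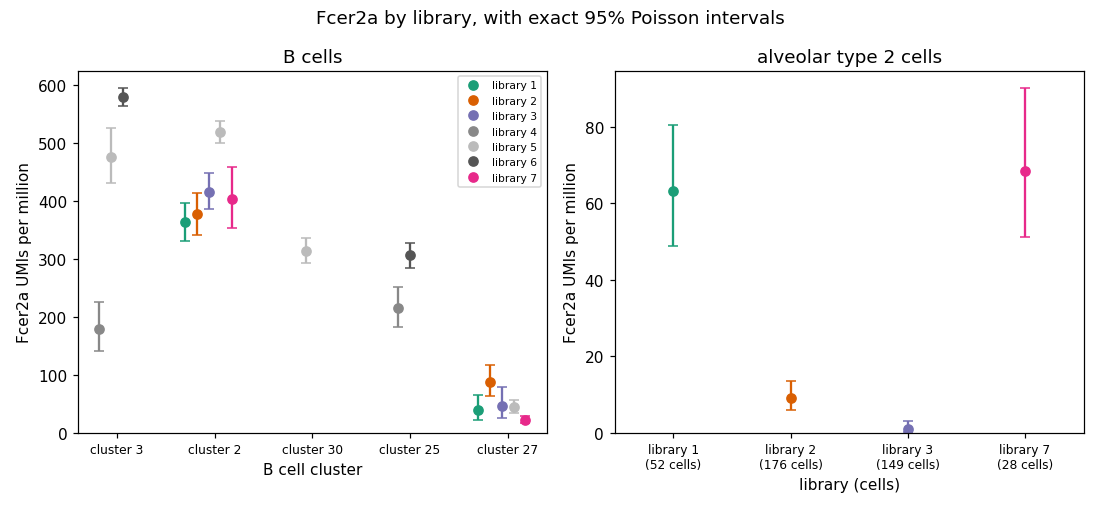
Fcer2a level (y axes, UMIs in 1000000) in the 5 B cell clusters and in alveolar type 2 cells, with a point for each library of at least 20 cells and exact 95% Poisson intervals. Cluster 27 lies below the other B cell clusters in each library shown, and alveolar type 2 cells of libraries 1 and 7 (63.3 and 68.6) lie above those of libraries 2 and 3 (9.08 and 0.850).

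Among classes outside the B lineage, alveolar type 2 cells, the surfactant-producing epithelium, stood out for how Fcer2a was spread over libraries, a result singled out after the values were seen. Library 1 had 63.3 (48.9–80.5), with a UMI in 27 of 52 cells, and library 7 had 68.6 (51.1–90.2), in 12 of 28 cells. Library 2 had 9.08 (5.88–13.4), in 15 of 176 cells, and library 3 had 0.850 (0.103–3.07), in 2 of 149 cells. The hemoglobin-rich libraries held no such cells. The 2 high and the 2 low libraries did not overlap. In the same 4 libraries, some of which held few cells of a class, club cells had 0 to 3.51 (the highest from 1 UMI in 5 cells), ciliated cells 0, endothelial cells 0 to 1.28, fibroblasts 0 to 1.50 and T cells 0 to 0.421.

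Alveolar type 2 cells with Fcer2a were set beside the other cells of their class in a few genes. Of 56 cells with Fcer2a 96.4% had Sftpc and 100% had Lamp3, both genes of this epithelium. Because clustering placed all of them in this class, those shares were partly fixed beforehand. At least 2 of 6 B cell genes were found in 3.57% of the cells with Fcer2a and in 3.15% of the 349 cells without it. Cd79a, a B cell receptor chain, was at 0 to 8.50 CPM in the 4 libraries, and it was seen in 5.36% of cells with and 1.72% without Fcer2a. Ms4a1, another B cell gene, was seen in 1.79% and 0.287%. The source of the Fcer2a UMIs was not tested. Cells with Fcer2a were deeper, with a median of 21586.5 UMIs against 16429. A few cells of type 1 epithelium gave too little to compare, with 5 UMIs in 1 cell of library 1 and 1 UMI in library 7. Because the 4 libraries cannot be tied to asthma, emphysema, recovery or control, these levels are not a comparison of treatments.

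Fcer2a in neutrophils, at 24.8 (22.0–27.8), sat with B cell genes. Of 119 neutrophils with an Fcer2a UMI, 79.0% carried at least 2 of 6 B cell genes, against 3.04% of the others. Cluster 45, which also scored highest for B cell markers, had 214, and the other neutrophil clusters had 2.08 to 15.1. By library the level was 39.1 and 86.0 in libraries 5 and 6, where B cells were most numerous, and at most 8.97 in the other 5.

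Fcgr1, the high-affinity IgG receptor, marked monocytes and macrophages. Classical monocytes had the highest level, at 122 (117–126), and C1q macrophages followed at 102 (95.4–109). Nonclassical monocytes had 52.3 (47.5–57.4), Arg1 and Mmp12 macrophages 47.8 (44.1–51.6) and alveolar macrophages 41.0 (39.2–42.8). B cells, T cells, endothelial cells and cDC1 were each below 1. Neutrophils had 16.7, but cluster 37, which scored highest for classical monocyte markers, had 79.0, and the other 5 neutrophil clusters had 0 to 1.46.

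Classical monocytes had Fcgr1 at 93.2, 200, 140, 102, 173, 122 and 173 in libraries 1 to 7. Library 1 was lowest and library 2 highest, and their intervals (82.3–105 and 181–220) did not overlap. C1q macrophages had 77.8, 137, 105 and 98.3 in libraries 1, 2, 3 and 7, again with library 1 lowest and library 2 highest. Nonclassical monocytes had 39.8 in library 1 and 81.7 in library 2, with 48.2 to 71.1 in the others. In alveolar macrophages the range was narrower, at 35.2, 43.7, 38.1 and 44.0, so that library 1 was lowest in all 4 classes that could be compared over at least 4 libraries. Arg1 and Mmp12 macrophages, with enough cells in libraries 1, 2 and 7 only, went the other way. They had 58.9 (52.9–65.5), 47.2 (37.2–59.1) and 35.9 (31.2–41.2) there. Within clusters, library 1 was lowest in classical monocyte cluster 11 (93.1), nonclassical monocyte cluster 8 (39.8) and alveolar macrophage clusters 12 (32.0) and 43 (29.9). In all of these but cluster 11 its interval overlapped that of library 3. The low place of library 1 did not hold in alveolar macrophage cluster 1. Of the 634 alveolar macrophages of library 1, 524 fell in cluster 12, and within cluster 1 library 1 had 53.3, beside 43.5, 40.4 and 44.0 in libraries 2, 3 and 7.

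Fcgr3, the low-affinity activating receptor with the broadest use, was found in 10493 cells. C1q macrophages had the highest level, at 442 (429–456). Arg1 and Mmp12 macrophages at 371 (361–381), neutrophils at 364 (353–375) and basophils at 344 (287–410) overlapped one after another, and classical monocytes at 309 (302–316) overlapped basophils. Alveolar macrophages had 280 (276–285), eosinophils 276 (212–354), neutrophil precursors 211 and nonclassical monocytes 173 (164–182). NK cells, in which Fcgr3 mediates killing of antibody-coated cells, had 68.0 (57.8–79.4), close to cDC2 at 74.2 (68.2–80.6). The megakaryocyte or platelet class had no UMI.

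Neutrophils had Fcgr3 at 363, 383, 350, 255, 343, 355 and 531 in libraries 1 to 7. Library 7 was highest, and library 4, which also held 104 of the 124 neutrophil precursors, lowest. The clusters differed here too. Within cluster 5, library 5 had 523 (455–599) and library 7 had 571 (533–611). Cluster 29, at 235, held 128 of the 213 neutrophils of library 4. Alveolar macrophages had 295, 293, 195 and 338 in libraries 1, 2, 3 and 7. Within their cluster 1, library 1 had 350 (319–384) and library 7 had 346 (334–359). C1q macrophages had 388, 510, 434 and 506 in libraries 1, 2, 3 and 7. No library was highest in most classes: library 7 was so in 4 of 8.

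Fcgr4, an activating receptor, had its highest level in nonclassical monocytes. That level was 493 (478–508), and after thinning 50.6% of these cells had a UMI. Of all Fcgr4 UMIs, alveolar macrophages, a larger class, held 34.5% and nonclassical monocytes 28.7%. Neutrophils came next with 127 (120–134), then alveolar macrophages with 103 (99.9–106), C1q macrophages with 64.2 and Arg1 and Mmp12 macrophages with 55.6. Classical monocytes had 41.5 (38.9–44.2). The order of the monocyte classes was thus opposite for Fcgr4 and Fcgr1, and the same held by library. Nonclassical monocytes had Fcgr4 at 560, 473, 431, 400, 532, 432 and 518, all above classical monocytes, which had 34.0 to 48.5.

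In neutrophils Fcgr4 was 219, 160, 148 and 197 in lung libraries 1, 2, 3 and 7, and 61.0, 94.7 and 97.3 in hemoglobin-rich libraries 4, 5 and 6. The 2 sets did not overlap, with pooled levels of 169 and 83.6. The clusters that made up neutrophils also differed between the sets. Within cluster 5, library 5 had 171, inside the 142 to 204 of the lung libraries.

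Fcgr2b, the inhibitory receptor, was highest in C1q macrophages, at 435 (422–449), and in Arg1 and Mmp12 macrophages, at 397 (387–408). Then came cDC2 with 244 (233–256) and alveolar macrophages with 233 (229–237), which overlapped. Classical monocytes had 155, basophils 124, nonclassical monocytes 105, cDC1 103 and B cells 98.8. In NK cells it was 45.6 and in T cells 5.26.

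Library 7 had the highest Fcgr2b in 7 of the 10 classes compared, but not in every cluster of them. In alveolar macrophage cluster 1, library 1 had 328 (298–360) and library 7 had 262 (251–274). In B cell clusters 2 and 27, library 5 had 110 and 193 and library 7 had 90.8 and 155. C1q macrophages had 476, 369, 370 and 543 in libraries 1, 2, 3 and 7, and alveolar macrophages had 255, 238, 166 and 275. In C1q macrophages the intervals of libraries 1 and 7 met. Arg1 and Mmp12 macrophages had 362 and 353 in libraries 1 and 2 and 452 (435–469) in library 7. The last interval lay above the other 2, while Fcer1g in the same cells ran the opposite way. Classical monocytes had 159, 212, 227, 115, 201, 183 and 277, and the interval of library 7 (225–338) overlapped that of library 3 (208–247).

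Neutrophils showed a gap of the same direction, a result also singled out after the values were seen. Their Fcgr2b was 39.0, 51.2, 42.3, 37.1, 37.9 and 23.1 in libraries 1 to 6 and 136 (119–155) in library 7, where 94 of 493 cells had a UMI. Within cluster 5, libraries 1, 2, 3, 5 and 7 had 24.0, 23.3, 8.33, 4.96 and 121 (103–140). Cluster 37, which scored highest for classical monocyte markers, had 141, 119 and 82.3 in libraries 2, 3 and 4. Macrophage RNA was measured beside Fcgr2b. The summed level of 8 macrophage genes in neutrophils was 375, 326, 97.8 and 206 CPM in libraries 1, 2, 3 and 7 and at most 16.1 in libraries 4 to 6, and its part in the Fcgr2b values was not tested. In the 411 neutrophils of library 7 without a UMI of these genes, Fcgr2b stood at 108, against 19.4 to 36.9 in such cells of the others. T cells of the 4 lung libraries, taken as background, had 3.28 to 9.25, endothelial cells 3.58 to 10.2 and fibroblasts 4.75 to 20.2. In library 7 the median depth was 5758.5 UMIs in T cells and 3019 in neutrophils. The part of background in the neutrophil values was not tested. With mitochondrial UMIs limited to 5%, an alternative added after the data were seen, the library 7 value was 53.4, beside 39.2, 40.2 and 43.0 in libraries 1, 2 and 3.

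The balance of activating Fcgr3 to inhibitory Fcgr2b inside a class was taken from counts of the same cells, so their total UMIs cancel. It was not recomputed at a fixed depth, and the part of free RNA in the Fcgr3 and Fcgr2b counts was not tested. Reads of these genes can be confused, since their transcripts share 136 stretches of 60 bases, 13 of them in the last 500 bases, where 3′ tags fall. The other 20 pairs of the 7 genes share none. Neutrophils and their precursors had the highest balance. Neutrophils had 7.01 (6.44–7.65) Fcgr3 UMIs per Fcgr2b UMI, or 10.6 with mitochondrial UMIs limited to 5%, and their precursors 7.14 (5.04–10.4). The neutrophil clusters differed widely. Cluster 37, highest for classical monocyte markers, had 739 Fcgr3 and 282 Fcgr2b UMIs, and cluster 45, highest for B cell markers, 223 and 71. Clusters 5, 28, 29 and 59 had 2258 and 224, 325 and 8, 543 and 14, and 142 and 4. In eosinophils 62 UMIs stood against 20, an interval of 1.85 to 5.42. Basophils had 2.78, from 125 and 45 UMIs, classical monocytes 1.99 (1.91–2.07) and nonclassical monocytes 1.65 (1.52–1.80).

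Macrophages stood near parity and dendritic cells and B cells well below it. Alveolar macrophages had 1.20 (1.17–1.23), C1q macrophages 1.02 (0.972–1.06) and Arg1 and Mmp12 macrophages 0.934 (0.898–0.970). The ratio was 0.304 (0.276–0.334) in cDC2, 0.171 (0.142–0.204) in cDC1 and 0.0176 (0.0132–0.0230) in B cells. With Fcgr1 and Fcgr4 added to Fcgr3, neutrophils had 9.78, nonclassical monocytes 6.85, classical monocytes 3.04, alveolar macrophages 1.82, C1q macrophages 1.40, Arg1 and Mmp12 macrophages 1.19 and cDC2 0.383.

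By library the pooled class ratio held closest in alveolar macrophages, at 1.15, 1.23, 1.17 and 1.23 in libraries 1, 2, 3 and 7, although both genes varied there. Its clusters differed. In these libraries cluster 1 had 467 Fcgr3 and 437 Fcgr2b UMIs, 4870 and 3950, 1486 and 1115, and 2859 and 2164. Cluster 12 had 1976 and 1634, 216 and 193, 488 and 544, and 437 and 459. Cluster 43 had 79 and 114, 349 and 283, 158 and 164, and 133 and 174. The ratio in Arg1 and Mmp12 macrophages was 1.15 and 1.01 in libraries 1 and 2 and 0.742 in library 7, so their side of parity differed between libraries. C1q macrophages had 0.815, 1.38, 1.17 and 0.931. Neutrophils had 9.31, 7.49, 8.28, 6.88, 9.06, 15.4 and 3.90 in libraries 1 to 7, lowest in library 7. These values pool clusters that differed. Cluster 37, highest for classical monocyte markers, held 52, 83 and 61 Fcgr2b UMIs in libraries 2, 3 and 4. Its Fcgr3 UMIs were 103, 178 and 253 there. Cluster 5 alone had 76 Fcgr3 and 5 Fcgr2b UMIs in library 1 and 492 and 27 in library 2. In libraries 3, 5 and 7 it had 641 and 13, 211 and 2, and 838 and 177. In each of the 4 lung libraries the pooled neutrophil ratio exceeded that of alveolar macrophages. The cDC2 ratio stayed at 0.270 to 0.532 over 6 libraries. The cDC1 ratio ranged more widely, from 0.0816 (0.0547–0.118) in library 2 to 0.403 (0.295–0.544) in library 1, with 0.167 in both libraries 3 and 7.

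**Figure D4:**
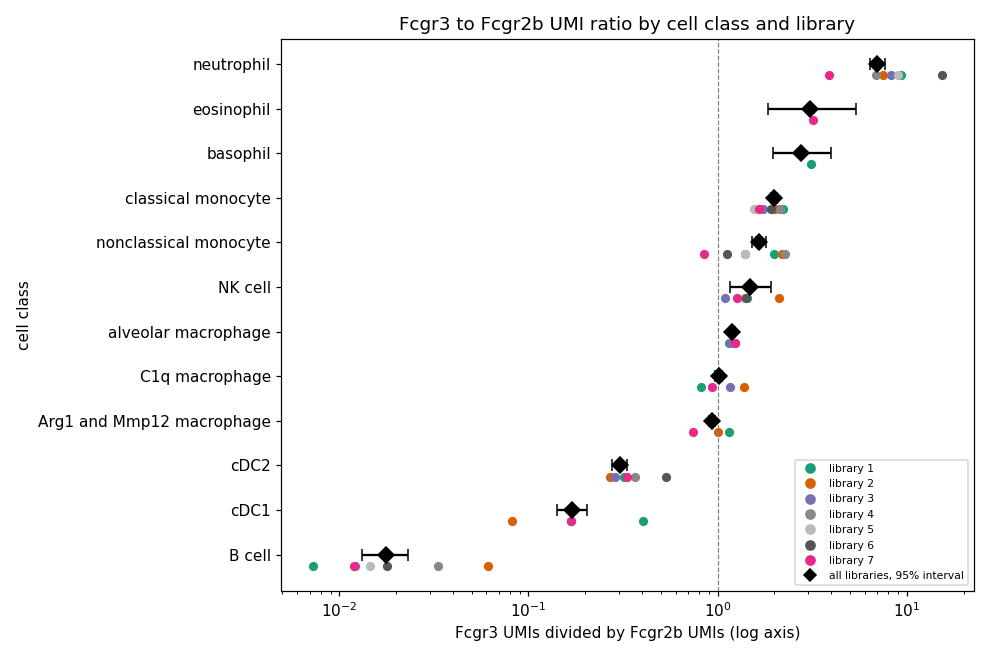
Fcgr3 UMIs divided by Fcgr2b UMIs (x axis, log scale) in 12 cell classes (y axis); black diamonds pool all libraries with exact 95% intervals, colored points are single libraries and the dashed line marks equal counts. Classes run from B cells (0.0176) through macrophages near 1 to neutrophils (7.01), whose clusters differed widely.

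Whether cells with an alpha chain also carried Fcer1g was read in cells thinned to 1500 UMIs. A UMI of Fcer1g was found in 61 of 69 cells with Fcer1a (88.4%, 78.4–94.9), 870 of 925 with Fcgr1 (94.1%), 3930 of 4330 with Fcgr3 (90.8%) and 1848 of 1973 with Fcgr4 (93.7%). The share was high, but so was Fcer1g in the cells of the same class that lacked the alpha chain. Basophils had Fcer1g in 91.4% of cells with Fcer1a and 92.9% without it. Classical monocytes had it in 97.6% with and 97.5% without Fcgr3, and nonclassical monocytes in 98.7% with and 98.8% without Fcgr4.

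Small gaps appeared in some classes. Alveolar macrophages had Fcer1g in 92.8% (91.1–94.3) of cells with Fcgr3 and 90.1% (88.7–91.3) without, and Arg1 and Mmp12 macrophages in 80.9% and 75.3%. In classes with almost no alpha chain the gap was wide. Endothelial cells had Fcer1g in 32.1% (15.9–52.4) of the few cells with Fcgr3 and 5.06% of the others, and fibroblasts in 68.4% (43.4–87.4) and 5.30%. Before thinning, 57.8% of endothelial cells and 70.2% of fibroblasts with Fcgr3 also had Tyrobp, another myeloid signaling chain, against 16.1% and 18.9% of the rest. Myeloid RNA in these cells moved with the alpha chain, and its part in the result was not tested.

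**Figure D5:**
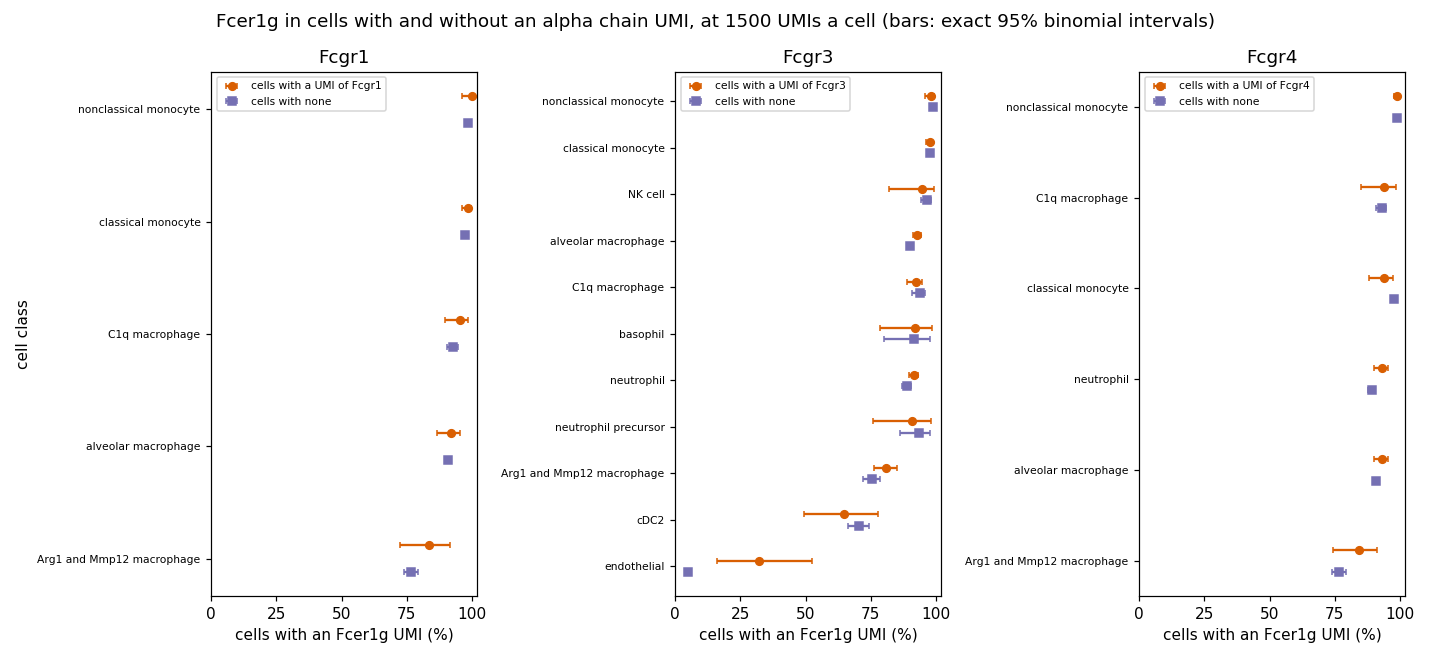
Share of cells with an Fcer1g UMI (x axes, percent) among cells with (orange) and without (purple) a UMI of Fcgr1, Fcgr3 or Fcgr4, by class (y axes), in cells thinned to 1500 UMIs with exact 95% binomial intervals. In monocytes, macrophages and neutrophils the 2 shares lie close together, while endothelial cells show 32.1% with Fcgr3 against 5.06% without.

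Fcer1g was also found where alpha chains were scarce. NK cells had 31.2 (26.7–36.6) Fcer1g UMIs per alpha chain UMI and plasmacytoid dendritic cells 56.9 (29.7–125). Platelets had 142 Fcer1g UMIs and no alpha chain UMI, so the ratio was at least 38.0. Fcer1g also serves other receptors, such as activating NK receptors and the platelet collagen receptor.

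Several Fc gamma receptors were often read from the same cell. After thinning, at least 1 of the 4 was found in 73.7% of C1q macrophages, 68.0% of nonclassical monocytes, 63.9% of Arg1 and Mmp12 macrophages, 60.8% of alveolar macrophages, 60.6% of classical monocytes, 54.7% of neutrophils and 13.0% of B cells. In T cells, which serve as background, it was 1.55%. In C1q macrophages 26.3% of cells had 2 kinds, 6.30% had 3 and 0.536% had all 4. Inside a class, few departures from what the separate shares predict were detected. The intervals were Poisson ones of the joint count, which are wider than fixed shares allow and can miss departures. Of 41 pairs of genes and classes, 38 had an interval of the observed to expected count that held 1. Some were wide, such as 0.461–1.77 for Fcgr1 with Fcgr4 in C1q macrophages and 0.220–3.12 for Fcgr2b with Fcgr3 in NK cells. Such intervals cannot show that the receptors combined independently. In C1q macrophages Fcgr3 met Fcgr4 in 43 cells against 32.9 expected, and Fcgr2b met Fcgr4 in 36 against 27.1. Fcgr1 met Fcgr3 there in 65 cells against 54.3, and Fcgr4 in 10 against 10.4. In alveolar macrophages the ratio for Fcgr2b and Fcgr3 was 1.03 (0.918–1.15), and in neutrophils that for Fcgr3 and Fcgr4 was 0.983 (0.844–1.14). The other 3 lay above 1. They were Fcgr2b with Fcgr3 in cDC2 (1.70, 1.09–2.53) and in endothelial cells (3 cells), and Fcer2a with Fcgr2b in neutrophils (6 cells).

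Genes that work with the receptors were read from a list of 33. Tyrobp, an adaptor like Fcer1g, was highest in neutrophils (4611), plasmacytoid dendritic cells (4182) and basophils (3667). Cd247, a related signaling chain of T and NK cells, was highest in T cells (192) and NK cells (139). Of the kinases that start the signal, Lyn was highest in nonclassical monocytes (556) and Syk in B cells (474). Of the phosphatases that end it, Inpp5d, which Fcgr2b recruits, was highest in eosinophils at 236 (177–309), overlapping cDC1 at 220, and Ptpn6 in nonclassical monocytes (573).

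The ligand side was read in the same way. Ighe, the IgE heavy chain, had 12 UMIs in all, with 0.858 CPM in plasma cells, and so was barely detectable at this depth. Ighg1, the heavy chain of IgG1, had 10002 CPM in plasma cells and 46.0 in B cells. Most of its UMIs came from libraries 1 and 7, with 16701 and 8606, while libraries 2, 3 and 6 held 1, 0 and 1. Adam10, the protease that sheds CD23, was highest in lymphatic endothelial cells (405), and Cr2, a ligand of CD23, in B cells (166). Fcgrt, which recycles IgG, was highest in lymphatic endothelial cells (362) and C1q macrophages (198).

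Likeness of pattern was measured by Pearson's r of log2(CPM + 1) over 26 classes, among 13766 genes with at least 10 CPM in 1 class. The classes share libraries and free RNA, so r is a description. Fcer1a was most like Mcpt8 (0.991), Ms4a2 (0.990), Dnase2b (0.984), Cyp11a1 (0.983) and Csrp3 (0.973). Fcer1g was most like Tyrobp (0.958), Cd300a (0.905), Itgb2 (0.883), Emilin2 (0.881) and Naip5 (0.859). Fcer2a was most like Cd79b (0.901), Cacna1i (0.844), Ighd (0.839), Gm30211 (0.835) and Klhl14 (0.833). Mcpt8 and Cyp11a1 were among the basophil markers that named the class.

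The IgG receptors each had neighbors of their own. Fcgr1 was most like Clec4a3 (0.974), Sirpb1c (0.923), Csf1r (0.922), Msr1 (0.919) and Tlr8 (0.916). Fcgr2b was most like Themis2 (0.852), Man2b1 (0.848), Rassf4 (0.845), Snx20 (0.845) and Gnpda1 (0.845). Fcgr3 was most like Cd300lb (0.919), Gm49339 (0.918), Emilin2 (0.912), Igsf6 (0.897) and Itgam (0.888). Fcgr4 was most like Pilra (0.934), Cd300ld (0.921), C130050O18Rik (0.913), Pilrb2 (0.897) and Msrb1 (0.897). Among the 7 genes themselves r was 0.845 for Fcgr1 with Fcgr4, 0.831 for Fcgr3 with Fcgr4, 0.825 for Fcer1g with Fcgr3 and 0.777 for Fcgr2b with Fcgr3. It was 0.233 for Fcer1a with Fcer1g and -0.103 for Fcer1g with Fcer2a.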

How the data were processed

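Lung cells were profiled on the 10x Chromium platform. The labels name 3′ chemistry v3, while the study's methods name version 2. The authors' deposited counts are UMIs per gene and barcode, made with Cell Ranger 3.1.0 and STAR on mm10, not normalized. Barcodes with at most 10% mitochondrial UMIs were kept, with no other limit. Each cell was normalized to 10000 UMIs before the log. From 2000 variable genes without the 7 receptors, 30 components were taken and libraries aligned by mutual nearest neighbors (20 neighbors). Leiden clustering used a resolution of 0.8 (leidenalg 0.10.2, igraph 0.11.9, Python 3.11.15, numpy 2.4.6, scipy 1.17.1, pandas 2.3.3, scikit-learn 1.9.0, matplotlib 3.10.9). Names of clusters rest on 33 lists of marker genes. Clusters with markers of several classes were divided once, and those that scored higher for another class stayed unnamed unless 3 own markers led. Both rules were set after the clusters were seen. Doublets were kept. Scrublet (scanpy 1.11.5) called 104, 428, 128, 3, 13, 0 and 33 cells in libraries 1 to 7, too few in libraries 4, 5 and 6 for its calls to be relied on there. For shares, cells were thinned to 1500 UMIs and shallower ones left out, including 240 of 254 eosinophils. Classes needed 50 cells and libraries 20, except for basophils and the classes set beside alveolar type 2 cells. The named genes are the 7 members, the 5 genes most like each over classes, and 12 of 33 listed partners fixed by their tie to a member. Members and lists were chosen with earlier results of these data known. With 1 unmapped matrix no test was made, so no p-value is given. The interval functions were tested on simulated data. The alternatives were the mitochondrial limit, the study's cell limits, alignment, resolution, doublet removal, library weights, each library left out, the thinning depth and the likeness measure.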

Additional observations from a re-analysis of the deposited data

How the results depend on the processing

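No paired analysis was possible because the barcodes of the matrix carry no map to the labelled samples, and no result comes from a test. Of 205 values recomputed, 149 stayed within their counting interval, and the highest class was kept in 96 of 98 checks. The exceptions were Fcgr2b, which was highest in Arg1 and Mmp12 macrophages with mitochondrial UMIs at most 5% (419) and without library 1 (401). The cause of the shifts was not tested.

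With mitochondrial UMIs at most 5%, Fcer1g was 3693, Fcer2a 329, Fcgr1 129, Fcgr4 512 and the neutrophil ratio of Fcgr3 to Fcgr2b 10.6. The study's limits on UMIs and genes gave Fcer1g 3502, Fcgr3 477 and ratios of 7.85 in neutrophils, 1.14 in alveolar macrophages and 1.09 in C1q macrophages. Without alignment Fcer1g was 3518. At a resolution of 0.4 Fcer2a was 402 and the alveolar macrophage ratio 1.24. Without called doublets Fcer1g was 3499, Fcer2a 404 and Fcgr1 127. With the 7 genes allowed among the variable genes, Fcgr4 was 512 and the neutrophil ratio 7.82. Equal weight of libraries gave Fcer1g 3516, Fcer2a 308, Fcgr1 143, Fcgr3 459 and ratios of 8.62 in neutrophils, 1.07 in C1q macrophages and 0.351 in cDC2. Without the hemoglobin-rich libraries, an alternative added after the data were seen, Fcer2a was 239, Fcgr1 140 and the neutrophil ratio 5.79.

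With each library left out in turn, Fcer1a ranged from 881 to 962, Fcer1g 3535 to 3631, Fcer2a 324 to 425, Fcgr1 114 to 143, Fcgr2b 401 to 465, Fcgr3 412 to 489 and Fcgr4 451 to 511. The ratio ranged from 6.31 to 8.88 in neutrophils, 1.19 to 1.22 in alveolar macrophages, 0.887 to 1.22 in C1q macrophages and 0.296 to 0.326 in cDC2. C1q macrophages fell to 0.887 without library 2 and rose to 1.22 without library 1, so their side of parity rests on those libraries. Shares with Fcer1g ranged from 84.9% to 92.7% for Fcer1a, 93.4% to 95.2% for Fcgr1, 90.1% to 91.8% for Fcgr3 and 92.6% to 94.4% for Fcgr4.

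Shares with Fcer1g rose with depth. They were 84.7%, 82.8% and 88.4% for Fcgr1, Fcgr3 and Fcgr4 at 1000 UMIs, 98.8%, 96.8% and 98.2% without thinning, and 95.5%, 92.5% and 95.2% with mitochondrial UMIs at most 5%. For Fcer1a the share without thinning was 96.2%. Fcer2a in alveolar type 2 cells of library 1 was 82.3 under the study's limits and 63.1 to 63.3 otherwise, and that of library 7 was 68.6 to 69.1. At 5% mitochondrial UMIs these libraries had under 20 such cells and gave no value. Fcgr2b in neutrophils of library 7 was 104 with the 7 genes among the variable genes. With Spearman's rho, 20 of the 35 genes named for likeness were again among the 5 highest.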

Other observations

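A cluster of 617 cells that no marker list named, led by Plac8, Adgre4 and Ms4a6c, had all 4 Fc gamma receptors in its pooled counts. The monocyte and macrophage classes had all 4 as well. The cluster had Fcer1g at 2700 CPM, Fcgr1 at 143, Fcgr2b at 243, Fcgr3 at 280 and Fcgr4 at 117. Fcer2a stood at 27.8, with a UMI in 8.10% of its cells. Among unnamed cells of all clusters, 119 of the 129 with Fcer2a carried at least 2 of 6 B cell genes, against 5.14% of the rest. The part of B cell RNA in the Fcer2a value of this cluster was not tested. Fcgr1 lay inside the 77.9 to 149 of the 3 classical monocyte clusters and Fcgr4 below the 493 of nonclassical monocytes.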
